A study of Danio rerio with 6 samples.

Results

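Claudins are the membrane proteins that form the strands of tight junctions, and their genes were described here in mgat4b mutant melanoma, control melanoma and wild-type melanophores of zebrafish. Members were the gene identifiers whose zebrafish name begins with cldn, with names beginning with cldnd left out. This gave 39 of the 32520 identifiers in the count tables. The names left out belong to 3 identifiers, among them the gene called cldnd. Of the members, 11 are listed under a human symbol in the table of names, and 10 of these are given here by the zebrafish name of the RefSeq gene (assembly GRCz12tu) that lies between the same neighbours. The eleventh keeps its listed symbol, CLDN8.

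Tight junctions join neighbouring epithelial or endothelial cells near their apical side and limit the passage of water, ions and larger molecules between the cells. Each claudin crosses the membrane several times, and its outer loops meet those of claudins on the next cell. Some claudins seal the gap and others form pores for ions, and the set of claudins that a cell makes differs between epidermis, kidney tubule, blood vessel and myelinating glia. Inside the cell, scaffold proteins such as the ZO proteins tie claudins to actin. Pigment cells are not epithelial and are not known for tight junctions, whereas the epidermis of fish skin is.

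Each group had 2 libraries, which the labels call biological replicates, from cells isolated from skin or melanoma biopsies of 1-month-old fish of the ASWT strain. The mgat4b mutant melanoma group received MAZERATI plasmids, in which the mitfa promoter drives oncogenic BRAF and Cas9 in the melanocyte lineage with guides against p53 and pten, and in addition Cas9 under the same promoter with guides against mgat4b. The control melanoma group received the MAZERATI plasmids without guides against mgat4b and has a wild-type mgat4b genotype. The paper describes its control fish as expressing a non-targeting guide, and a figure legend lists an empty vector (mitfa:EV) for them. The wild-type melanophores came from untreated fish, so they carry neither the oncogene nor the guides. Both edited groups are mosaic, since the plasmids were injected into embryos and cutting was limited to cells that use the mitfa promoter. The mutant fish formed aggregates of melanocytes and no tumours. The tissue was digested and the cells were separated on a density gradient, with no sort for pigment cells described, and the number of fish behind each library is not given in the sources used here. If the libraries of a group share a pool of cells, the p-values below measure only technical spread.

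The libraries held 5225341 and 3538922 counts in mutant melanoma, 8223044 and 8446997 in control melanoma and 7351705 and 7121087 in wild-type melanophores. Replicates were compared by a chi-square of their counts per gene, which lies near 1 for counting noise alone. It was 10.16 in mutant melanoma, 2.52 in control melanoma and 2.31 in wild-type melanophores, so comparisons with the mutant are the less precise ones. A single noncoding RNA of the signal recognition particle, rn7sl1, took 26.2% to 30.7% of the counts in mutant melanoma, 37.3% to 37.4% in control melanoma and 7.65% in both wild-type libraries. Levels are therefore given as CPM, counts relative to a library size that was scaled by the trimmed mean of M values (TMM). This scaling is meant to take up such differences in composition. The CPM were scaled over all 6 libraries together, whereas each fold change was fitted with TMM on the 4 libraries compared. A ratio of CPM can therefore differ slightly from the fold change. The targeted gene MGAT4B (ENSDARG00000004115) had 94 and 52 counts in mutant melanoma, 102 and 107 in control melanoma and 264 and 260 in wild-type melanophores. Its level did not separate the melanoma groups (log2 fold change 0.17, SE 0.28, edgeR adjusted p = 0.717), and a transcript count does not show whether the gene was cut.

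Markers of several cell types were present in all libraries, so the labelled cell type was not pure. The 13 melanophore markers summed to 260 and 288 CPM in mutant melanoma, 259 and 274 CPM in control melanoma and 65.5 and 67.7 CPM in wild-type melanophores. KIT (ENSDARG00000043317) was the largest part of the wild-type sum, at 29.2 and 36.9 CPM. TYRP1 (ENSDARG00000056151) had 76.99 and 71.5 CPM in mutant melanoma, 77.1 and 78.2 CPM in control melanoma and 2.36 and 2.05 CPM in wild-type melanophores. For pmela the levels were 94.96 and 78.3, 65.2 and 68.98, and 4.4 and 4.6 CPM in the same order of groups. In control melanoma against wild-type melanophores, 12 of the 13 had a log2 fold change above 0 and 1 below. The 15 keratinocyte and periderm markers summed to 13713 and 14401 CPM in mutant melanoma, 10371 and 10445 CPM in control melanoma and 17161 and 17472 CPM in wild-type melanophores. No marker of either list was at 0 in every library of any group. In bulk samples fewer cells of a type and less RNA per cell cannot be told apart, and the part of cell makeup in the claudin results was not tested.

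Of the 39 claudins, 24 passed the filter on low counts in at least 1 comparison, 20 passed it in all 3, and 15 passed it in none. The 15 never exceeded 12 counts in a library, and one of them, cldn18, had no count at all. In mutant melanoma 27 and 25 members had at least 1 count, against 35 and 37 members in control melanoma and 35 and 34 members in wild-type melanophores. The depth of the mutant libraries was also the lowest. The claudin transcripts together came to 2211 and 2076 CPM in mutant melanoma, 2645 and 2721 CPM in control melanoma and 3537 and 3558 CPM in wild-type melanophores. The 3 groups did not overlap in this sum, and an exact permutation test of 2 libraries against 2 cannot give a two-sided p below 0.333. Most of the gap between control melanoma and wild-type melanophores came from 1 gene, cldnb. It had 784 and 788 CPM in control melanoma and 1636 and 1584 CPM in wild-type melanophores. The sum therefore does not show a decline across the family.

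To compare levels between genes, CPM were divided by the length of the exons in kb. On this scale a few genes made up most of the claudin transcripts. The 5 highest members by their mean over the 3 groups were cldnb, cldn7b, cldni, cldna and cldne. They held 81.4% and 80.1% of the summed claudin CPM per kb in mutant melanoma, 83.0% and 82.7% in control melanoma and 92.6% and 92.1% in wild-type melanophores. Ranked within mutant melanoma alone, cldn1 takes the place of cldne among the 5, so the mutant shares are not those of its own highest members. cldnb was the highest claudin in every group, at a mean of 494 CPM per kb in mutant melanoma, 710 CPM per kb in control melanoma and 1454 CPM per kb in wild-type melanophores. It was followed in every group by cldn7b, at 306, 348 and 450 CPM per kb in the same order of groups. The third place differed between the groups: it was held by cldni in mutant melanoma (142 CPM per kb), by cldne in control melanoma (145 CPM per kb) and by cldna in wild-type melanophores (137 CPM per kb). In mutant melanoma cldn1 came next at 135 CPM per kb, close to cldni. In wild-type melanophores cldn1 was at 35.0 CPM per kb, below all of the 5 highest members.

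**Figure D1:**
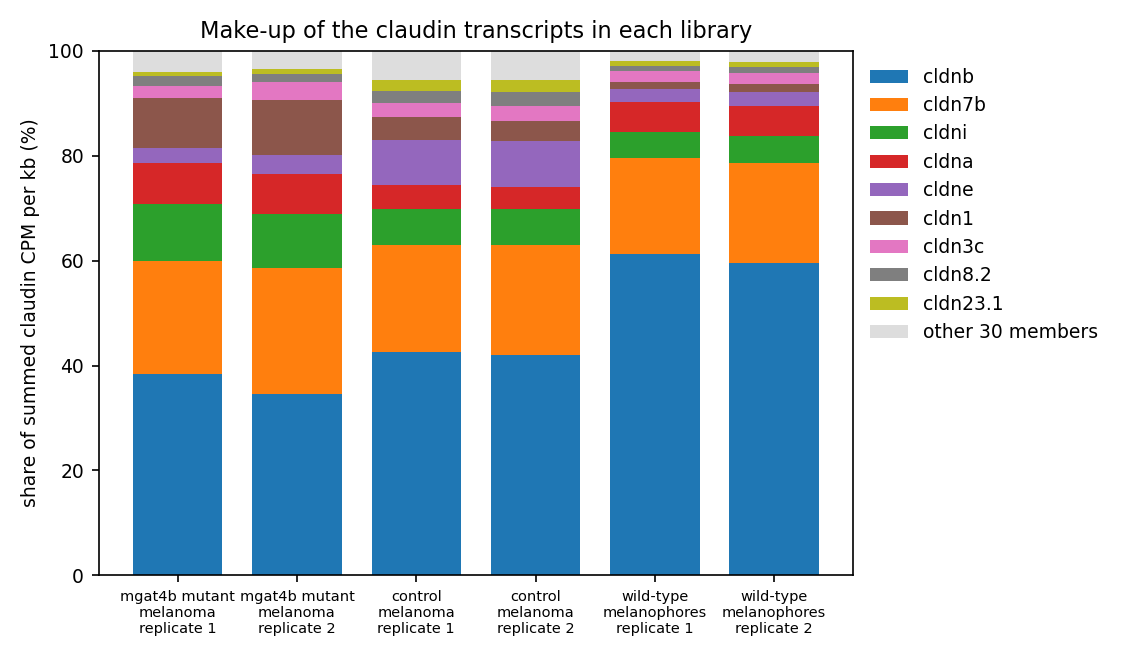
Stacked bars of the share (%) that the highest claudins each take of the summed claudin CPM per kb of exon, with all other members pooled in a grey section. The bars are the 2 libraries each of mgat4b mutant melanoma, control melanoma and wild-type melanophores. The cldnb share is 38.5% and 34.6% in the mutant bars, 42.6% and 42.0% in the control bars and 61.3% and 59.5% in the wild-type bars, while cldne is widest in the control bars and cldn1 in the mutant bars.

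The make-up of the claudin transcripts differed between the groups, most of all in cldnb. The cldnb share was 38.5% and 34.6% in mutant melanoma, 42.6% and 42.0% in control melanoma and 61.3% and 59.5% in wild-type melanophores. The cldn1 share was 9.59% and 10.5% in mutant melanoma, 4.35% and 3.90% in control melanoma and 1.40% and 1.51% in wild-type melanophores. The cldne share was 2.83% and 3.50% in mutant melanoma, 8.56% and 8.72% in control melanoma and 2.50% and 2.54% in wild-type melanophores. Thus cldnb was most prominent in wild-type melanophores, cldn1 in mutant melanoma and cldne in control melanoma, with no overlap between the named group and the others. The cldni share was also largest in mutant melanoma, at 10.8% and 10.3%, against 6.86% and 6.80% in control melanoma and 5.05% and 5.13% in wild-type melanophores. For cldna the shares were 7.87% and 7.60%, 4.58% and 4.22%, and 5.61% and 5.79% in the same order of groups. Shares are parts of a whole, so a smaller cldnb share leaves larger shares for the other members. These shares do not depend on the scaling of the libraries.

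**Figure D2:**
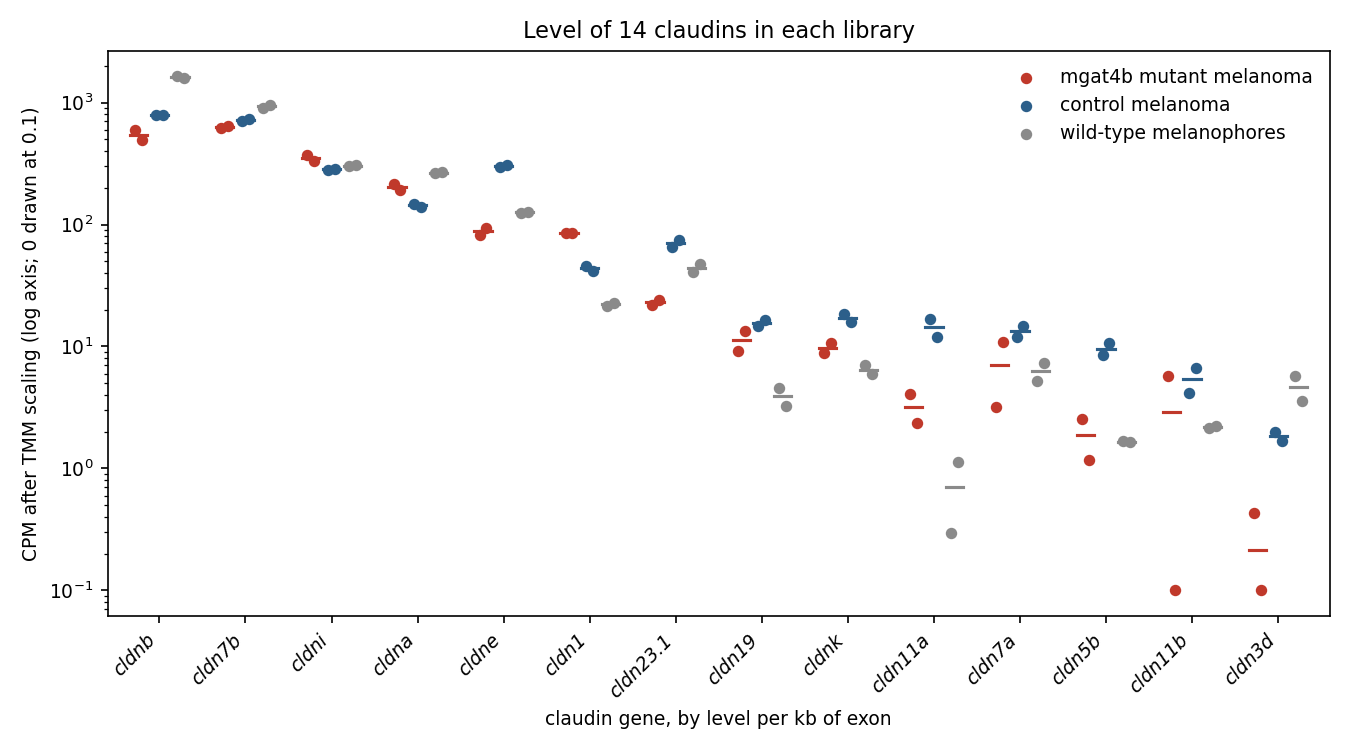
CPM after TMM scaling (log axis) of the 14 claudins named with values in each library, ordered by level per kb of exon, with 1 point per library and a short line at the group mean. Values of 0 are drawn at 0.1, which occurs for cldn11b and cldn3d in mutant replicate 2, and the cldne points of control melanoma lie above those of both other groups.

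The comparison of mgat4b mutant melanoma with control melanoma sets apart the groups with and without guides against mgat4b, each a mixture of unsorted cells. The groups also differ in tumour formation and in cell makeup. For example, the 11 fibroblast and scale markers summed to 12044 and 11658 CPM in mutant melanoma and 62593 and 63918 CPM in control melanoma. These differences cannot be separated here, and their part in the claudin results was not tested. A call needed an adjusted p under 0.05 in edgeR's quasi-likelihood test, with the adjustment over all genes tested, and a log2 fold change of 1 or more in size. Of 20 claudins tested, 4 were called lower in the mutant, namely cldne, cldn23.1, cldn11a and cldn5b, and 0 were called higher. Of all 17651 genes tested, 6.68% were called lower and 5.86% higher. DESeq2 also called 0 claudins higher and 4 lower, and edgeR's unadjusted p was under 0.05 for 3 claudins above 0. The log2 fold change was below 0 for 16 of the 20 claudins, with a median of -0.51, against a median of -0.02 over all genes tested.

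cldne (ENSDARG00000043128, GRCz11 chromosome 15, 2638884 to 2640966, minus strand) is a claudin of the outermost epithelium of the zebrafish embryo. Its counts were 387 and 319 in mutant melanoma and 1918 and 2036 in control melanoma, which is 82.8 and 94.3 CPM against 296 and 308 CPM. The groups were far apart, and cldne fell in the mutant by a log2 fold change of -1.76 (SE 0.11, edgeR adjusted p = 2.77e-05). cldn23.1 (ENSDARG00000028096, chromosome 10, 15046837 to 15048781, minus strand) had 22.0 and 23.9 CPM in mutant melanoma and 65.2 and 74.6 CPM in control melanoma. It fell by a log2 fold change of -1.59 (SE 0.17, edgeR adjusted p = 3.95e-04). Both calls held when any of the 4 libraries was left out.

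The other claudins called in this comparison were scarce. cldn11a (ENSDARG00000020031, chromosome 2, 25997426 to 26001173, minus strand) is related to mouse claudin 11, a component of the myelin of the central nervous system. It had 19 and 8 counts in mutant melanoma and 109 and 79 counts in control melanoma (4.06 and 2.36 CPM against 16.8 and 11.95 CPM). The groups did not overlap and the log2 fold change was -2.11 (SE 0.45, edgeR adjusted p = 0.0124), but the adjusted p was 0.271 without control melanoma replicate 1. cldn5b (ENSDARG00000014059, chromosome 10, 43994471 to 43996117, plus strand) is related to mammalian claudin 5, which seals the vessels of the brain. It had 12 and 4 counts in mutant melanoma and 55 and 70 counts in control melanoma (2.57 and 1.18 CPM against 8.50 and 10.6 CPM). Its log2 fold change was -2.28 (SE 0.58, edgeR adjusted p = 0.025), with adjusted p = 0.187 without control melanoma replicate 1, 0.358 without control melanoma replicate 2 and 0.0672 with no filter on low counts. The annotation places si:ch211-122a17.5 over cldn5b on the same strand, so that its reads may be shared or lost.

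Endothelial markers moved with cldn5b in the same libraries. The 12 endothelium markers summed to 35.3 and 31.0 CPM in mutant melanoma, 117 and 104 CPM in control melanoma and 36.5 and 30.2 CPM in wild-type melanophores. Of the 12, 6 were called lower in the mutant than in control melanoma and 0 higher, and 10 were called higher in control melanoma relative to wild-type melanophores. None of the 12 was at 0 in every library of a group. Their part in the cldn5b result was not tested.

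Several abundant claudins differed between the melanoma groups by less than the minimum fold change. cldn1 (ENSDARG00000040045, chromosome 2, 68789 to 71801, plus strand) is related to mouse claudin 1, which the epidermis needs to keep water in. It had 85.1 and 85.7 CPM in mutant melanoma and 45.7 and 41.9 CPM in control melanoma, with a log2 fold change of 0.98 (SE 0.14, edgeR adjusted p = 0.00165). It thus lay just under the minimum, and above it, at 1.04 with adjusted p = 0.00639, without control melanoma replicate 1. For cldna, cldni, cldnb, cldn8.2 and cldnf the adjusted p was under 0.05 as well, with log2 fold changes of 0.52, 0.33, -0.51, -0.84 and -0.95. cldn7b (ENSDARG00000014047, chromosome 10, 22144768 to 22150419, minus strand) had 622 and 642 CPM in mutant melanoma and 701 and 736 CPM in control melanoma, which did not pass the test (log2 fold change -0.17, SE 0.08, edgeR adjusted p = 0.204).

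**Figure D3:**
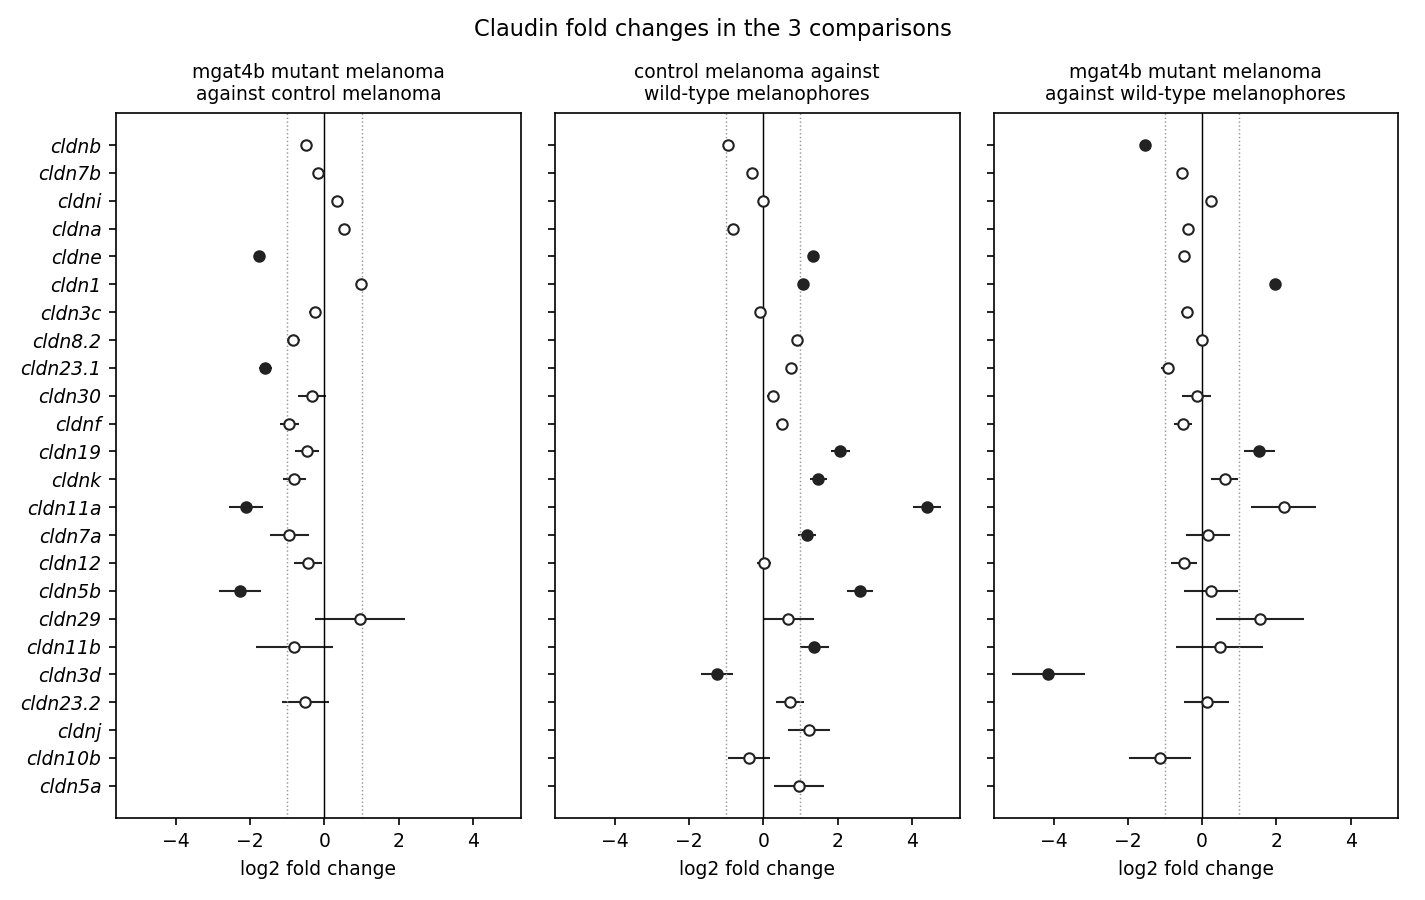
Log2 fold changes with their standard errors (bars) for the 24 claudins tested in at least 1 comparison, ordered by level, in 3 panels on a common axis. Filled points were called (adjusted p under 0.05 and beyond the dotted lines at -1 and 1), and there are 4 in mutant against control melanoma, 9 in control melanoma against wild-type melanophores and 4 in mutant melanoma against wild-type melanophores.

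The comparison of control melanoma with wild-type melanophores sets cells of injected fish that formed tumours beside cells of untreated fish. The groups differ in the plasmids and tumour as well as in cell makeup. For example, the endothelium markers summed to 117 and 104 CPM in control melanoma and 36.5 and 30.2 CPM in wild-type melanophores. The comparison cannot separate these differences, and the part of each in the claudin results was not tested. Of 24 claudins tested, 8 were called higher in control melanoma (cldne, cldn1, cldn19, cldnk, cldn11a, cldn7a, cldn5b and cldn11b) and 1 lower (cldn3d). Of all 19088 genes tested, 19.9% were called higher and 12.1% lower. The median log2 fold change was 0.73 over the claudins tested and -0.01 over all genes. This comparison shares the control libraries with the one above, so that a gene with a high level in control melanoma appears in both.

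Of the abundant claudins, 2 were called higher. cldne had 296 and 308 CPM in control melanoma and 125 and 127 CPM in wild-type melanophores, a log2 fold change of 1.34 (SE 0.06, edgeR adjusted p = 4.67e-24). cldn1 had 45.7 and 41.9 CPM in control melanoma and 21.4 and 22.9 CPM in wild-type melanophores, a log2 fold change of 1.07 (SE 0.13, edgeR adjusted p = 7.02e-10). The cldn1 value is close to the minimum and fell just below it in 3 other fits, the lowest of which gave 0.985. cldnb (ENSDARG00000009544, chromosome 21, 25765734 to 25766840, plus strand), known in zebrafish from the lateral line primordium and other epithelia, lay near the minimum on the other side. It had 784 and 788 CPM in control melanoma and 1636 and 1584 CPM in wild-type melanophores, with a log2 fold change of -0.95 (SE 0.04, edgeR adjusted p = 3.96e-24). These CPM, and those of cldn1, were scaled over all 6 libraries, so their ratios differ slightly from the fold changes. cldnb was called lower in the same 3 fits, with values from -1.035 to -1.021. cldn7b and cldna were also lower by less than the minimum, with log2 fold changes of -0.29 and -0.81. Other claudins were higher by less than the minimum. The log2 fold change was 0.90 for cldn8.2 (edgeR adjusted p = 2.24e-10) and 0.74 for cldn23.1 (edgeR adjusted p = 3.48e-08). For cldnf it was 0.51 (edgeR adjusted p = 0.00384).

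cldn11a, cldn19 and cldnk were at low levels and rose in control melanoma. cldn11a had 109 and 79 counts in control melanoma and 3 and 11 counts in wild-type melanophores (16.8 and 11.95 CPM against 0.295 and 1.13 CPM). Its log2 fold change of 4.41 (SE 0.39, edgeR adjusted p = 5.10e-14) was the largest of any claudin in this comparison. cldn19 (ENSDARG00000044569, chromosome 11, 39013763 to 39044595, minus strand) is related to mammalian claudin 19 of kidney tubules and Schwann cells. It had 14.8 and 16.3 CPM in control melanoma and 4.53 and 3.27 CPM in wild-type melanophores (log2 fold change 2.07, SE 0.25, edgeR adjusted p = 1.08e-09). cldnk (ENSDARG00000042357, chromosome 3, 50123507 to 50127668, minus strand), a claudin of myelinating glia in zebrafish, had 18.4 and 15.9 CPM in control melanoma and 6.99 and 5.93 CPM in wild-type melanophores. Its log2 fold change was 1.49 (SE 0.22, edgeR adjusted p = 1.19e-07). The groups did not overlap for these 3 genes, which were named because they were called, so this adds nothing to the calls.

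Glial and renal markers were measured in the same libraries. The 10 Schwann cell and oligodendrocyte markers summed to 268 and 244 CPM in control melanoma and 144 and 135 CPM in wild-type melanophores, and 7 of the 10 were called higher in control melanoma. In mutant melanoma the same markers summed to 220 and 250 CPM, which overlapped control melanoma. In mutant against control melanoma, where cldn11a was called lower, 1 of the 10 was called higher and 1 lower. There 8 of the 10 were below 0 and 2 above, with a median log2 fold change of -0.61. The 12 kidney tubule markers summed to 847 and 819 CPM in control melanoma and 843 and 814 CPM in wild-type melanophores, and 4 of the 8 tested were called higher. The sum mostly reflects 1 gene, SLC20A1 (ENSDARG00000010641). It had 707 and 672 CPM in control melanoma and 739 and 711 CPM in wild-type melanophores. Of the 8 kidney tubule markers tested, 7 had a log2 fold change above 0 and 1 below, with a median of 2.09. The part of such cells in the levels of cldnk, cldn11a and cldn19 was not tested.

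The remaining calls of this comparison were less firm, apart from that of cldn5b. cldn5b had 8.50 and 10.6 CPM in control melanoma and 1.67 and 1.64 CPM in wild-type melanophores, a log2 fold change of 2.60 (SE 0.35, edgeR adjusted p = 1.24e-08). cldn7a (ENSDARG00000036376, chromosome 7, 22616212 to 22626853, plus strand) had 12.1 and 14.8 CPM in control melanoma and 5.21 and 7.36 CPM in wild-type melanophores. Its log2 fold change was 1.18 (SE 0.24, edgeR adjusted p = 4.60e-05) and 0.95 without wild-type replicate 1, and its adjusted p was 0.0804 in a joint fit of the 6 libraries. cldn11b (ENSDARG00000030723, chromosome 24, 26432541 to 26441318, plus strand) had 27 and 44 counts in control melanoma and 22 in each wild-type library, a log2 fold change of 1.37 (SE 0.39, edgeR adjusted p = 0.00253). Its adjusted p was 0.0894 without control melanoma replicate 2 and 0.281 in the joint fit. In mutant melanoma the cldn11b counts were 27 and 0, so its replicates disagreed.

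cldn3d (ENSDARG00000015955, chromosome 21, 25754268 to 25756119, minus strand) was the claudin called lower in control melanoma. It had 13 and 11 counts in control melanoma and 58 and 35 counts in wild-type melanophores (2.01 and 1.66 CPM against 5.71 and 3.58 CPM), a log2 fold change of -1.25 (SE 0.43, edgeR adjusted p = 0.0108). The call was lost in DESeq2 (adjusted p = 0.0846), in the joint fit of the 6 libraries (adjusted p = 0.138), without control melanoma replicate 2 (adjusted p = 0.0502) and without wild-type replicate 1 (adjusted p = 0.222). In mutant melanoma cldn3d had 2 and 0 counts.

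The comparison of mgat4b mutant melanoma with wild-type melanophores sets unsorted cells of injected fish without tumours beside unsorted cells of untreated fish. The groups also differ in cell makeup. The 9 leukocyte markers summed to 310 and 346 CPM in mutant melanoma and 990 and 1033 CPM in wild-type melanophores. For the 11 fibroblast and scale markers the sums were 12044 and 11658 CPM against 4560 and 4075 CPM. These differences cannot be separated here, and their part in the claudin results was not tested. Of 22 claudins tested, 2 were called higher in the mutant (cldn1 and cldn19) and 2 lower (cldnb and cldn3d). Of all 17950 genes tested, 9.72% were called higher and 9.57% lower, and the median log2 fold change was -0.08 over the claudins and -0.03 over all genes.

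cldn1 and cldnb, both of epithelia, were called in opposite directions. cldn1 had 85.1 and 85.7 CPM in mutant melanoma and 21.4 and 22.9 CPM in wild-type melanophores, a log2 fold change of 1.98 (SE 0.13, edgeR adjusted p = 1.29e-04). cldnb had 597 and 496 CPM in mutant melanoma and 1636 and 1584 CPM in wild-type melanophores, a log2 fold change of -1.53 (SE 0.10, edgeR adjusted p = 1.17e-04). Both calls held without any one library. Of the 15 keratinocyte and periderm markers, 1 was called higher and 4 lower in this comparison. The 7 lateral line neuromast markers summed to 41.3 and 43.2 CPM in mutant melanoma and 93.6 and 90.8 CPM in wild-type melanophores. Of the 5 neuromast markers tested, 2 were called lower and 0 higher. PROX1 was the largest part of the sum, at 19.2 and 18.6 CPM in mutant melanoma and 53.5 and 50.3 CPM in wild-type melanophores. The part of these markers in the cldnb result was not tested.

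cldn19 and cldn3d were called on few counts. cldn19 had 43 and 45 counts in mutant melanoma and 46 and 32 counts in wild-type melanophores, which were 9.20 and 13.3 CPM against 4.53 and 3.27 CPM after scaling. Its log2 fold change was 1.54 (SE 0.41, edgeR adjusted p = 0.0335), with adjusted p = 0.0505 in DESeq2, 0.164 without wild-type replicate 1 and 0.329 without wild-type replicate 2. For cldn3d the 2 mutant libraries held 2 counts in all, against 93 counts in the 2 wild-type libraries. The ratio of the scaled levels was 0.0532, with an exact 95% interval of 0.00635 to 0.198 that covers counting error only. The edgeR adjusted p of cldn3d was 0.0225, against 0.323 without wild-type replicate 1 and 0.0999 without wild-type replicate 2. cldne, which fell in the mutant relative to control melanoma, had 82.8 and 94.3 CPM in mutant melanoma and 125 and 127 CPM in wild-type melanophores and was not called (log2 fold change -0.49, SE 0.11, edgeR adjusted p = 0.0217). cldn23.1, which fell there too, had 22.0 and 23.9 CPM in mutant melanoma and 41.0 and 47.5 CPM in wild-type melanophores. It lay just under the minimum (log2 fold change -0.92, SE 0.18, edgeR adjusted p = 0.0102).

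The 20 claudins tested in all 3 comparisons can also be described by the order of the 6 libraries. Both control melanoma libraries were the highest of the 6 for 10 members, namely cldne, cldn23.1, cldn8.2, cldnf, cldn19, cldnk, cldn11a, cldn7a, cldn5b and cldn23.2, and this held for 17.7% of all 16459 genes tested in the 3 comparisons. Both mutant libraries were the lowest for 7 members, against 16.6% of all genes, and the highest for 2, cldn1 and cldni, against 17.3% of all genes. Both wild-type libraries were the highest for 4 members, cldnb, cldn7b, cldn3c and cldna, against 25.4% of all genes, and the lowest for 4, against 19.5%. Both control melanoma libraries were the lowest for 2 members, cldna and cldni, against 18% of all genes. The 11 fibroblast and scale markers were also highest in control melanoma, summing to 12044 and 11658 CPM in mutant melanoma, 62593 and 63918 CPM in control melanoma and 4560 and 4075 CPM in wild-type melanophores, and their part in the claudin patterns was not tested. The orders of the libraries were looked at after the values were seen and are given as a description.

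Several claudin genes lie close together in the genome, and 2 such sets are described here. Other close neighbours, such as cldn23.1 and cldn23.2 on chromosome 10, were not compared in this way. On chromosome 15, cldnj, cldne, cldnf and cldna span 26.1 kb (2631421 to 2657508), and on chromosome 21, cldn3c, cldn3d, cldnb, cldn29 and cldn30 span 56.7 kb (25739295 to 25795968). Within the chromosome 15 set, cldna differed in direction from its neighbours in both comparisons with control melanoma, which share the control libraries. In mutant melanoma against wild-type melanophores the directions were the same. There the log2 fold change was -0.49 for cldne, -0.51 for cldnf and -0.36 for cldna, and none was called. In mutant against control melanoma the log2 fold change was -1.76 for cldne, -0.95 for cldnf and 0.52 for cldna, and in control melanoma against wild-type melanophores it was 1.34, 0.51 and -0.81. cldnj, tested only in control melanoma against wild-type melanophores, was at 1.24 (edgeR adjusted p = 0.06). The cldna gene (ENSDARG00000069888, chromosome 15, 2655566 to 2657508, minus strand) had 215 and 191 CPM in mutant melanoma, 148 and 139 CPM in control melanoma and 263 and 270 CPM in wild-type melanophores. Control melanoma was thus the lowest group for cldna and the highest for cldne.

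**Figure D4:**
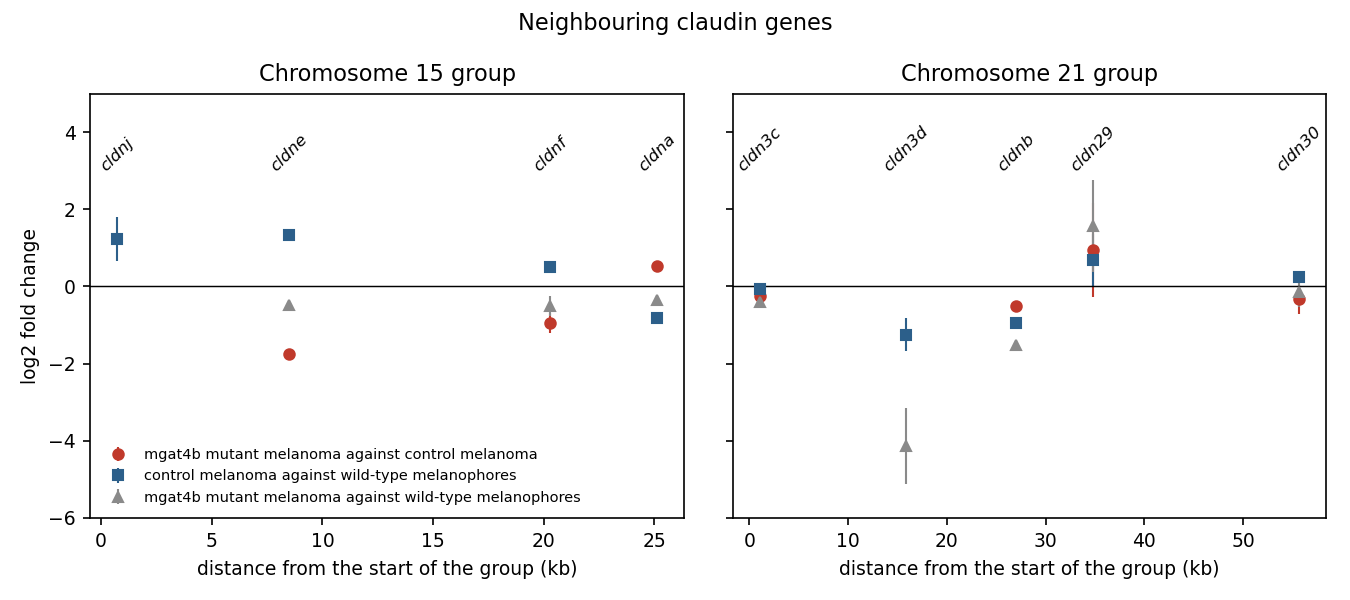
Log2 fold changes with standard errors (bars) of neighbouring claudin genes against the distance of the gene's midpoint from the start of its set (kb), for the chromosome 15 set (left) and the chromosome 21 set (right). In the left panel cldne and cldna lie on opposite sides of 0 in mutant against control melanoma (-1.76 and 0.52) and in control melanoma against wild-type melanophores (1.34 and -0.81).

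A ratio of 2 genes counted in the same library needs no scaling. There were 0.386 and 0.493 cldne counts per cldna count in mutant melanoma, 2.00 and 2.22 in control melanoma and 0.477 and 0.470 in wild-type melanophores. The control libraries stood apart, and the mutant libraries lay on both sides of the wild-type ones. On chromosome 21 there were 8.95 and 5.50 cldnb counts per cldn3c count in mutant melanoma, 8.64 and 7.99 in control melanoma and 15.9 and 14.6 in wild-type melanophores. The cldn29 and cldn30 genes of this set were not called in any comparison, and their mutant replicates disagreed, with 24 and 1 counts of cldn29 and 141 and 39 counts of cldn30.

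The most abundant claudins were also set against epcam, an epithelial membrane protein that binds claudin 7 in mammals. epcam had 2480 and 2706 CPM in mutant melanoma, 2150 and 1974 CPM in control melanoma and 2399 and 2524 CPM in wild-type melanophores, and it was not called in any comparison. Its level was not constant, however. On the log2 scale epcam lay 0.35 higher in the mutant than in control melanoma (edgeR adjusted p = 0.0202). Control melanoma lay below wild-type melanophores, at -0.17 (edgeR adjusted p = 4.58e-04). There were 0.241 and 0.183 cldnb counts per epcam count in mutant melanoma, 0.365 and 0.399 in control melanoma and 0.682 and 0.628 in wild-type melanophores. For cldn1 the ratio was 0.0343 and 0.0317 in mutant melanoma, 0.0213 and 0.0212 in control melanoma and 0.00890 and 0.00908 in wild-type melanophores. The 3 groups were separate for both genes, in opposite order. For cldne the ratio was 0.0334 and 0.0348 in mutant melanoma, 0.138 and 0.156 in control melanoma and 0.0523 and 0.0504 in wild-type melanophores. For cldn7b the ratios to epcam were close in control melanoma (0.326 and 0.373) and wild-type melanophores (0.379 and 0.377). They were lower in mutant melanoma, at 0.251 and 0.237. This closeness depended on the reference gene. Per count of cdh1, a keratinocyte and periderm marker, cldn7b had 0.759 and 0.742 counts in mutant melanoma. The values were 0.815 and 0.932 in control melanoma and 1.126 and 1.124 in wild-type melanophores, so these groups were no longer close. For cldnb, cldn1 and cldne the order of the groups was the same with cdh1 as with epcam.

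**Figure D5:**
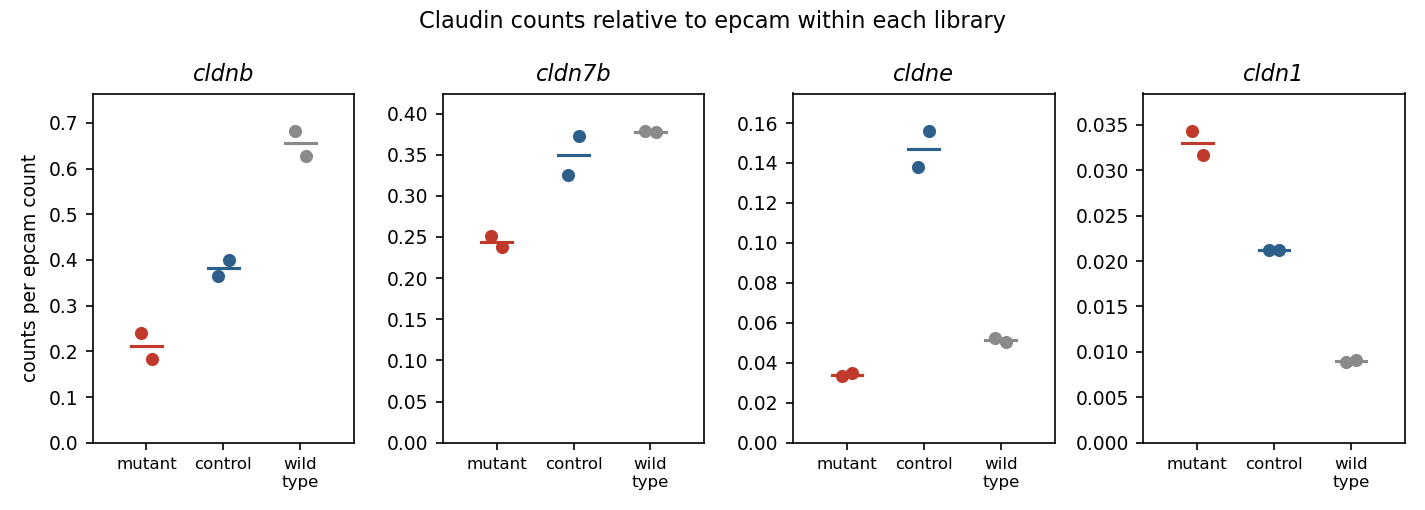
Counts of cldnb, cldn7b, cldne and cldn1 per epcam count in the same library, with 1 point per library and a line at the mean of mutant melanoma, control melanoma and wild-type melanophores (each axis starts at 0). The cldne points are highest in control melanoma (0.138 and 0.156), while the cldnb points are lowest and the cldn1 points highest in mutant melanoma.

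The remaining members were not called in these fits. cldni (ENSDARG00000054616, chromosome 3, 30921246 to 30927002, plus strand), which overlaps CORO1A on the other strand, was the steadiest of the 5 highest, with 374 and 330 CPM in mutant melanoma, 282 and 285 CPM in control melanoma and 302 and 305 CPM in wild-type melanophores. cldn3c, cldn8.2, cldn30, cldnf and cldn12 had group means between 10.1 and 106 CPM and were not called in any of the 3 comparisons as fitted here. Of these, cldn8.2 averaged 40.6 ± 5.5 CPM in mutant melanoma, 73.8 ± 10 CPM in control melanoma and 41.8 ± 0.51 CPM in wild-type melanophores (SD, n = 2 each). Its log2 fold change was -0.84 in mutant against control melanoma (edgeR adjusted p = 0.00959) and 0.90 in control melanoma against wild-type melanophores (edgeR adjusted p = 2.24e-10), both under the minimum size of a call. cldnf averaged 14.3 ± 1.8 CPM in mutant melanoma, 28.02 ± 4.0 CPM in control melanoma and 20.9 ± 3.1 CPM in wild-type melanophores (SD, n = 2 each), and in mutant against control melanoma it was called lower when 10 counts were required in every library (log2 fold change -1.02, edgeR adjusted p = 0.0136). Without mutant replicate 1, cldnf, cldn8.2 and cldn30 were called lower in that comparison (-1.10, -1.004 and -1.22). cldn8.2 overlaps CLDN8 on the same strand, so the split of reads between the pair is uncertain. cldn29, cldn23.2, cldnj, cldn10b and cldn5a were tested in at least 1 comparison and not called in any, although cldn29 was called higher without mutant replicate 2 (1.82 against control melanoma and 2.44 against wild-type melanophores) and without control melanoma replicate 2 (1.52 against wild-type melanophores). The 15 members under the filter were cldn10l2, cldn10d, cldng, cldn23l, cldn33b, cldn15lb, CLDN8, cldn10e, cldn15la, cldn10a, cldn2, cldn15b, cldn26, cldn15a and cldn18. With no filter on low counts, 2 of these were called higher in control melanoma relative to wild-type melanophores. cldn33b had 6 and 10 counts in control melanoma and 0 in both wild-type libraries (edgeR adjusted p = 0.008), which is at least 4.05-fold higher against a floor of 3 counts per library. cldn15lb had 12 and 9 counts in control melanoma and 2 and 3 counts in wild-type melanophores (edgeR adjusted p = 0.0226), and it was also called in the joint fit of the 6 libraries (adjusted p = 0.048).

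The other genes of the tight junction were described from a list of 57 identifiers. In mutant against control melanoma 49 were tested, 0 were called higher and 6 lower, with a median log2 fold change of -0.49, against 6.68% of all genes called lower and a median of -0.02. Of these 6 calls, 1 was kept without control melanoma replicate 1 and 3 without control melanoma replicate 2, and ildr1a was kept in both. DESeq2 called 0 higher too, and 2 genes above 0 had an unadjusted p under 0.05 in edgeR. In control melanoma against wild-type melanophores 16 of 51 were called higher and 1 lower (median 0.28), against 19.9% and 12.1% of all genes. In mutant melanoma against wild-type melanophores 2 of 48 were called higher and 6 lower (median -0.16), against 9.72% and 9.57% of all genes.

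Among the scaffolds, TJP1 (ENSDARG00000077506), which encodes a ZO protein that binds claudin tails, had 36.6 and 25.7 CPM in mutant melanoma, 67.4 and 51.6 CPM in control melanoma and 28.1 and 29.1 CPM in wild-type melanophores. It rose in control melanoma relative to wild-type melanophores (log2 fold change 1.13, edgeR adjusted p = 1.69e-11, but a log2 fold change of 0.93 without control melanoma replicate 1) and was not called lower in the mutant relative to control melanoma (-0.90, adjusted p = 0.0201). tjp1b and tjp3 were not called in any comparison. cgnb, which encodes cingulin, a link between the junction and the cytoskeleton, had 9.20 and 9.16 CPM in mutant melanoma, 20.7 and 25.1 CPM in control melanoma and 29.5 and 35.2 CPM in wild-type melanophores. It fell in the mutant relative to control melanoma (-1.30, edgeR adjusted p = 0.0146, but 0.0915 without control melanoma replicate 1 and 0.27 without control melanoma replicate 2) and relative to wild-type melanophores (-1.79, adjusted p = 0.00208). The related cgna also fell in the mutant relative to wild-type melanophores (-1.91, edgeR adjusted p = 0.00264). It was called lower in control melanoma relative to wild-type melanophores as well (-1.01, edgeR adjusted p = 1.42e-06). There its log2 fold change was -0.86 without control melanoma replicate 1, under the minimum.

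Among the other membrane proteins, ildr1a, related to a protein of mammalian junctions where 3 cells meet, had 15.8 and 19.2 CPM in mutant melanoma, 63.0 and 57.9 CPM in control melanoma and 26.4 and 27.1 CPM in wild-type melanophores. It fell in the mutant relative to control melanoma (-1.78, edgeR adjusted p = 3.85e-04) and rose in control melanoma relative to wild-type melanophores (1.26, adjusted p = 1.62e-13), so that the control libraries were highest, as for cldne. The occludin gene oclnb had 83.6 and 55.3 CPM in mutant melanoma, 131 and 134 CPM in control melanoma and 148 and 157 CPM in wild-type melanophores, and it fell in the mutant relative to wild-type melanophores (-1.09, edgeR adjusted p = 0.0061, but a log2 fold change of -0.83 without mutant replicate 2). The other occludin gene, oclna, was not called in any comparison, nor were f11r.1 and both MARVELD2 genes. jam2a, an adhesion molecule gene, rose in control melanoma relative to wild-type melanophores (2.35, edgeR adjusted p = 2.50e-05). JAM3 (ENSDARG00000061794) rose in the same comparison (1.42, edgeR adjusted p = 4.84e-07) and fell in the mutant relative to control melanoma (-1.35, adjusted p = 0.039). The fall of JAM3 was lost without control melanoma replicate 1 (adjusted p = 0.415), without control melanoma replicate 2 (0.205) and with no filter on low counts (0.0937).

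Among the polarity genes, pard6b and pard6a, whose proteins act with atypical protein kinase C at the apical side, fell in the mutant relative to control melanoma (-1.64, edgeR adjusted p = 0.00718, and -1.43, adjusted p = 0.00378). The pard6b call was lost without control melanoma replicate 1 (adjusted p = 0.0731) and replicate 2 (0.116), and that of pard6a without control melanoma replicate 1 (0.0507). pard6b had 6.42 and 6.50 CPM in mutant melanoma, 19.8 and 21.2 CPM in control melanoma and 22.5 and 19.3 CPM in wild-type melanophores. pard6a had 15.2 and 11.5 CPM in mutant melanoma, 39.1 and 34.5 CPM in control melanoma and 16.4 and 18.3 CPM in wild-type melanophores. The control and wild-type libraries overlapped for pard6b, whereas for pard6a the control libraries stood above both other groups. PALS1 (ENSDARG00000006272), a member of the Crumbs complex, fell in the mutant relative to wild-type melanophores (-1.57, edgeR adjusted p = 0.0054). llgl1, a basolateral polarity gene, rose in control melanoma relative to wild-type melanophores (1.68, edgeR adjusted p = 1.85e-11). It was also called higher in mutant melanoma relative to wild-type melanophores (1.28, edgeR adjusted p = 0.0107), but not without either wild-type replicate.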

How the data were processed

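RNA from cells of zebrafish skin or melanoma was depleted of ribosomal RNA and sequenced as 6 libraries, 2 in each group. The authors used Trimmomatic for trimming and STAR for alignment to GRCz11, and deposited raw counts per gene from featureCounts, with no normalization. The annotation release, the strand setting and the treatment of reads matching several genes are not given in the sources used here, so overlapping genes and near-identical copies are uncertain.

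Each pair of groups was fitted alone, on its 4 libraries, with edgeR 4.0.16 and limma 3.58.1 in R 4.3.3. Genes were kept by filterByExpr (minimum count 10, minimum total 15), TMM set the library scaling, and p-values of the quasi-likelihood test were adjusted by Benjamini-Hochberg over all genes tested. The SE of a log2 fold change is its size divided by the square root of F. The procedure was tested on simulated counts. The alternatives were DESeq2 1.42.0, an edgeR fit with its size factors, testing every gene with a count, a filter of 10 counts in each library, a joint fit of the 6 libraries, library sizes that leave out mitochondrial genes and the 20 top genes, other minimum fold changes, the replicate number as a block and leaving out each library. Library sizes without these genes and with no TMM were added after seeing the data. The replicate numbers did not pair the libraries (correlations of deviations -0.0062, -0.0037 and 0.0007).

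Values per library are given for claudins called in at least 1 comparison and for the 5 of highest mean CPM per kb, and further tight junction genes were named from a list together with up to 3 called genes of lowest p per comparison. One listed item is not reported here. JAM3, cldn29 and cldn30 were singled out after their values were seen. The members, gene lists and marker lists were chosen with earlier results of these data known. Gene symbols were found for 29201 of 32520 identifiers. No sequences are given.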

Additional observations from a re-analysis of the deposited data

How the results depend on the processing

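With 2 libraries in each group the tests rest on little replication, and the mutant libraries are the shallowest and the least alike, so comparisons with the mutant are the least precise. Of the 15 claudins under the filter, cldn33b and cldn15lb were called higher in control melanoma against wild-type melanophores with no filter, and cldn15lb in the joint fit of the 6 libraries, where cldn1, cldn7a, cldn11b and cldn3d lost their calls and cldnb was called lower. The replicate numbers share only a number, and a fit with the replicate block changed no claudin call. Under it cldn11b in mutant melanoma against wild-type melanophores turned to -0.37 on the log2 scale, and 1 other tight junction gene was called higher in that comparison. For cldni, 10 counts in every library gave 0.0041 in control melanoma against wild-type melanophores, where the reported value is -0.02.

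In mutant against control melanoma, no minimum fold change gave 3 claudins higher and 7 lower and 2 other tight junction genes higher and 13 lower. A minimum log2 fold change of 2 gave 2 claudins and 0 other tight junction genes lower. Over all 17651 genes tested, no minimum gave 1670 higher and 1635 lower, and a minimum of 2 gave 275 higher and 599 lower. In control melanoma against wild-type melanophores, the count of claudins called lower was 2 with no filter on low counts and with no TMM, 0 with DESeq2, 4 with no minimum fold change and 0 with a minimum of 2, and 3 claudins were higher with that minimum. For the other tight junction genes in that comparison, a minimum of 2 gave 4 higher and 0 lower, no minimum gave 11 lower, and 10 counts in every library gave 0 lower. In mutant melanoma against wild-type melanophores, 1 claudin was higher with no filter and with DESeq2 and 0 with a minimum of 2. There, 1 claudin was lower with 10 counts in every library and with a minimum of 2, and 6 with no minimum. Of the other tight junction genes there, 1 was higher with no filter, with DESeq2 and with a minimum of 2, and 0 were lower with a minimum of 2. Calls in either direction over all genes shifted too. They came to 10730 of 19088 with no minimum and 2377 with a minimum of 2 in control melanoma against wild-type melanophores. In mutant melanoma against wild-type melanophores they came to 4849 and 1489 of 17950.

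The counts over all genes, given in the next paragraph, also moved when a library was left out. Leaving out a library leaves a group with 1, which is then assumed to vary like the other group. In mutant against control melanoma this gave 0 to 1 claudins higher, 2 to 8 lower, 0 to 2 other tight junction genes higher and 2 to 12 lower, and cldn11b ranged from -7.90 to 0.10 on the log2 scale. Both counts of 2 lower were without control melanoma replicate 1, and the 8 was without mutant replicate 1. In control melanoma against wild-type melanophores, 0 to 1 claudins and 0 to 1 other tight junction genes were lower. In mutant melanoma against wild-type melanophores, 1 to 5 claudins were higher, 1 to 4 lower and 0 to 5 other tight junction genes higher. Both counts of 5 were without mutant replicate 2, and the 1 higher and the 1 lower without either wild-type replicate. On the log2 scale, cldn7a ranged from -0.93 to 0.83, cldn5b from -0.45 to 0.66 and cldn11b from -7.11 to 1.42.

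Over all genes, mutant against control melanoma had 1035 higher and 1179 lower, with 607 and 674 under no filter on low counts, and control melanoma against wild-type melanophores had 3789 higher and 2302 lower, with 2497 and 1487 at 10 counts in every library. With no minimum fold change 1670 genes were higher in mutant against control melanoma and 5148 lower in control melanoma against wild-type melanophores. Leaving out a library gave 591 to 1916 higher and 511 to 2950 lower in mutant against control melanoma. Mutant melanoma against wild-type melanophores had 1744 higher and 1717 lower, and 962 to 2858 and 836 to 3441 with a library left out. The other alternatives changed no claudin count by more than 1.5 times. The cause of these shifts was not tested.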
